A study of Mus musculus with 2 samples.

Results

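The Peg3 imprinted domain lies on proximal mouse chromosome 7, and 4 of its genes were followed here: Peg3, Usp29, Zfp264 and Zim1. They were taken by name from a table of 48550 gene rows, in which each of the 4 names occurred once, and all 4 were among the 15509 genes with enough reads to be tested. Nuclear RNA was measured in F121-6, a line of mouse embryonic stem (ES) cells, female by the labels, that carries a 129 and a cas (castaneus) genome, grown in serum and LIF on mouse embryonic fibroblasts (MEFs) whose division had been stopped with mitomycin C. Both alleles sit in the same nuclei of the ES cells, so the comparison was made within each library, 129 against cas. There were 2 libraries of 1 group, a single line under 1 condition, and nothing in the labels says that they came from separate cultures. The p-values thus measure a spread, pooled over genes, that may be technical. Which strain was the mother is not in the labels, and the parental origin of a read is therefore unknown.

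Genomic imprinting restricts expression of a gene to the copy inherited from 1 parent. At the Peg3 domain the control region is a CpG-rich stretch at the shared start of Peg3 and Usp29 that carries DNA methylation on the maternal copy. In mouse tissues Peg3, Usp29 and Zfp264 are known as paternally expressed genes and Zim1 as a maternally expressed one. Peg3 encodes a large zinc finger protein known for effects on growth and maternal behaviour in mice, Usp29 belongs to the ubiquitin-specific proteases, and Zim1 and Zfp264 are zinc finger genes.

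The 4 genes span 319.8 kb in the mm10 annotation. Zim1 (chromosome 7, 6671269 to 6696450) and Peg3 (6703892 to 6730431) lie on the minus strand, and Usp29 (6730578 to 6967219) and Zfp264 (6977246 to 6991087) on the plus strand. Peg3 and Usp29 are head to head with 146 bp between their annotated starts. Zfp264 is annotated as a transcribed unprocessed pseudogene and the other 3 as protein coding. The windows from 250 bases before to 50 after the starts are shown for Peg3 and Zim1, as the starts of a paternally and a maternally expressed gene of the domain, with each CpG in capitals. They are RefSeq sequences of the reference strain on GRCm38.p6, not of the 129 or cas alleles, and both are on the minus strand, at chr7:6730370-6730669 and chr7:6696383-6696682.
Peg3: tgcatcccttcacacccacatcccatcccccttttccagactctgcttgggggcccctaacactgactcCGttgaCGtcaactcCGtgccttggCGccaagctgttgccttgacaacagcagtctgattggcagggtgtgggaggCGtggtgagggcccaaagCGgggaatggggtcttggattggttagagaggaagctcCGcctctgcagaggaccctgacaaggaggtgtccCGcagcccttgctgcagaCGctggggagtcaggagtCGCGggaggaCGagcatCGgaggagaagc
Zim1: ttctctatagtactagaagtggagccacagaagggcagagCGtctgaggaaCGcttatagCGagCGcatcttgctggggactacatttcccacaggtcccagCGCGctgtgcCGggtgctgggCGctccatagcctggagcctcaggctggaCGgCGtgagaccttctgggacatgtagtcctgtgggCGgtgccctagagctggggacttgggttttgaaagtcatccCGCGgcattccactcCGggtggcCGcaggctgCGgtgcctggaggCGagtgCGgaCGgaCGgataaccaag

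The Peg3 window held 13 CpG and the Zim1 window 20, against a median of 7 over 32851 RefSeq windows of the same length. Of all windows, 37.9% held at least as many as that of Peg3 and 26.5% at least as many as that of Zim1. The Usp29 window held 17 CpG and shares 263 bases with that of Peg3 on the opposite strand, so that most of the printed Peg3 stretch is also the start of Usp29. The control region is known to bind YY1, and the letters GCCATNTT were searched as its motif on both strands. None of the windows of Peg3, Usp29 and Zim1 held them, against 6.05% of all windows, which says only that these letters are not in these stretches.

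Library 1 held 28523744 allele-assigned reads and library 2 held 31402765, of which 53.6% and 54.2% were from 129. Ratios are given as log2(129/cas) of reads scaled to CPM (reads per 1000000 of the column) plus 0.1, positive where 129 is higher. Because each allele column was scaled to the typical gene, a gene with equal raw reads from both alleles has a ratio below 0. The scale decides directions over the table: 50.0% of all calls were higher from 129 as reported, but 61.9% with the deposited column totals and 81.3% with 1 library size for both alleles, which moved the median gene to 0.32. Of 6 ES cell markers, 5 were detected with at least 161 reads in each library, while Sox2 was listed at 0. The summed reads of 8 fibroblast markers came to 44.1 and 58.6 CPM of the whole library in libraries 1 and 2, against 2208 and 2153 for the ES markers. The ES markers were uneven within this sum. In library 1 Esrrb gave 21634 reads from 129 and 18146 from cas, but Pou5f1 only 90 and 71. Col1a2, the highest fibroblast marker, gave 528 and 4 there, more than Pou5f1. In library 2 Pou5f1 gave 182 and 120 reads, and Col1a2 783 and 15. The sums thus do not describe each marker. Lum and Twist1 were at 0 among the fibroblast markers, and 91.7% and 92.6% of the markers' summed reads were from 129. Of the 6 tested, 4 were called higher from 129, against 21.9% of all tested genes. Thy1 (58.2% and 60.1% from 129) and Pdgfrb (67.0% and 66.7%) were not called. Any RNA of feeder cells was counted together with that of the ES cells, and its part in the values below was not tested.

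Reads from both alleles were found in all 4 genes and in each library, and the more abundant allele never supplied more than 66.3% of a gene's reads. The 129 shares ranged from 33.7% to 52.0% over the 4 genes and both libraries, below the share of all reads in every case. With a threshold of 90% of reads from 1 allele in each library, 0 of the 4 genes qualified, against a background of 2.77% of tested genes, or 429. In RNA from many cells, a share of this kind in every cell and a mixture of cells that each use 1 copy cannot be told apart. Any reads of feeder cells were not separated from either. Peg3 and Zfp264 were called higher from cas (2 of 4), where 22.0% of all tested genes were called in that direction and 43.9% in either direction. Usp29 and Zim1 were not called. The median ratio of the 4 genes was -0.51, against -0.0026 over all tested genes.

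**Figure D1:**
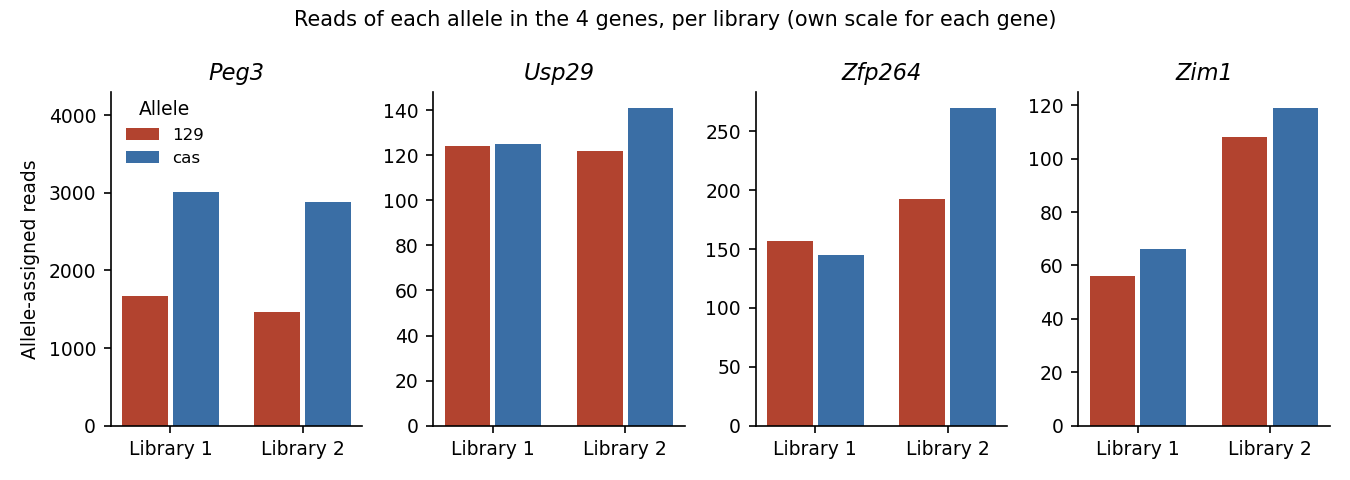
Bars give the allele-assigned reads of Peg3, Usp29, Zfp264 and Zim1 in each library (vertical axes, each gene on its own scale from 0), 129 in red and cas in blue. Peg3 had 1675 and 1469 reads from 129 and 3009 and 2888 from cas, whereas the bars of Usp29 and Zim1 stand nearly level.

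Among the 3 paternally expressed genes of the domain, Peg3 had by far the most reads. It gave 1675 reads from 129 and 3009 from cas in library 1, and 1469 from 129 and 2888 from cas in library 2. Cas was thus the higher allele in each library, and the allele values did not overlap. The 129 share was 34.7% ± 1.45 (SD, n = 2), with exact 95% intervals of 34.4 to 37.2 in library 1 and 32.3 to 35.1 in library 2. The log2 ratio was -1.24 (SE 0.075, limma adjusted p = 8.18e-59), which is 2.36-fold in favour of cas. It was -1.14 in library 1 and -1.33 in library 2. The call held under every scaling, pseudocount, filter and test tried, with ratios between -1.24 and -0.91 and adjusted p of at most 0.000252. Of all tested genes 5.71% had a ratio at or below that of Peg3. The share was 2.11% among the 1662 genes with at least as many reads.

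Usp29, which starts on the other side of the same control region, gave 124 reads from 129 and 125 from cas in library 1, and 122 from 129 and 141 from cas in library 2. The alleles were level in library 1 and slightly apart in library 2. Its 129 share was 48.1% ± 2.41 (SD, n = 2), with an interval of 43.4 to 56.2 in library 1 and 40.2 to 52.6 in library 2. The log2 ratio of -0.43 (SE 0.26, limma adjusted p = 0.174) was not called, and it was -0.11 with 1 library size for both alleles. Peg3 lay further toward cas than Usp29 by -0.80 on the log2 scale (95% interval of the difference -1.34 to -0.27), with -0.84 in library 1 and -0.77 in library 2. Such differences between genes do not depend on how the columns are scaled, apart from the small pseudocount. The annotated span of Usp29 is 236.6 kb and overlaps Zim3 on the opposite strand over 11535 bp. It also holds 9 rows of the table that start inside it on either strand, none of which had a read.

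Zfp264 gave 157 reads from 129 and 145 from cas in library 1, and 193 from 129 and 270 from cas in library 2. The libraries differed, with slightly more reads from 129 in the first and more from cas in the second. Its 129 share was 46.8% ± 7.28 (SD, n = 2), from 52.0% (interval 46.2 to 57.7) in library 1 and 41.7% (37.2 to 46.3) in library 2. The log2 ratio was -0.51 (SE 0.22, limma adjusted p = 0.0436), from -0.18 in library 1 and -0.84 in library 2. The call was lost under 6 of 7 other settings with a test, where adjusted p ranged up to 0.687, so the ratio of Zfp264 stands near the threshold and rests on library 2.

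Zim1, the maternally expressed gene of the set, gave 56 reads from 129 and 66 from cas in library 1, and 108 from 129 and 119 from cas in library 2. The alleles were close in each library. Its 129 share was 46.7% ± 1.18 (SD, n = 2), with intervals of 36.8 to 55.2 and 40.9 to 54.3. The log2 ratio of -0.51 (SE 0.32, limma adjusted p = 0.203) was not called and was -0.18 with 1 library size for both alleles. Zim1 was thus not called on the opposite side from the paternally expressed genes. Its difference from Zfp264 was 0.0020 (95% interval -0.76 to 0.77, given as Zim1 minus Zfp264), and that of Usp29 minus Zim1 was 0.074 (-0.74 to 0.89), intervals wide enough to hold a difference of 1.5-fold either way. Peg3 minus Zim1 was -0.73 (-1.38 to -0.078). Among the 4 genes, the 3 differences that involve Peg3 each had an interval below 0, and the 3 among Usp29, Zfp264 and Zim1 each held 0. None of these intervals was adjusted for the number of pairs.

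Levels differed widely among the 4 genes. On a scale of CPM of the whole library per kb of annotated span, Peg3 had 5.71 ± 0.68 (SD, n = 2), which placed it at percentile 94.8 of the 14972 tested genes with an annotated span. Zfp264 had 0.92 ± 0.21, Zim1 0.23 ± 0.083 and Usp29 0.036 ± 0.0011, against a median of 0.73. The order Peg3, Zfp264, Zim1, Usp29 was the same in each library, and no neighbours in it overlapped. This order depends on the span: by reads alone Usp29, with 249 and 263, was above Zim1, with 122 and 227. The annotation used for counting is not given, so the stretch counted in each gene is unknown. Reads can be assigned to an allele only where the strains differ in sequence, and the density of such sites was not known, so the order of levels between genes also follows that density. Peg3 supplied most of the domain's allele-assigned reads, 4684 of 5357 over the 4 genes in library 1 and 4357 of 5310 in library 2.

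**Figure D2:**
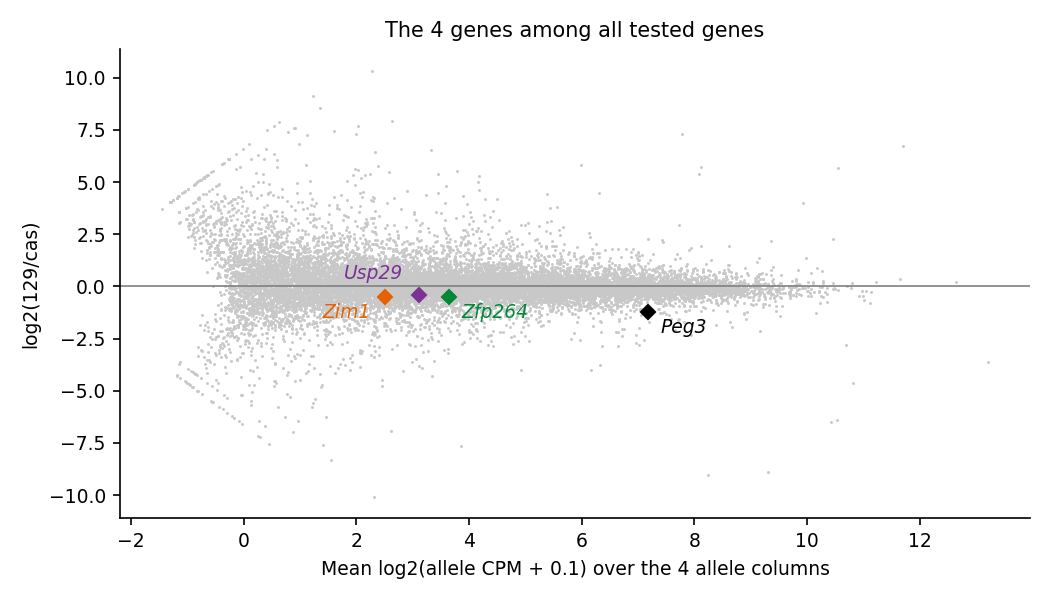
Each grey point is 1 of the 15509 tested genes, with its mean log2(CPM + 0.1) over the 4 allele columns on the horizontal axis and its log2(129/cas) on the vertical axis. Peg3 sits at the lower edge of genes with many reads at -1.24, while Usp29, Zfp264 and Zim1, between -0.51 and -0.43, lie inside the cloud at lower read numbers.

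Of 2 further transcripts of the domain, Gm44015 was called higher from 129 and Zim3 was not called. Gm44015, which RefSeq lists as a synonym of Zim2 (6651748 to 6662368, minus strand, annotated as a processed transcript), lies next to Zim1. It gave 198 reads from 129 and 82 from cas in library 1, and 285 from 129 and 124 from cas in library 2. The allele from 129 was the higher in each library, with a share of 70.2% ± 0.73 (SD, n = 2). The log2 ratio was 0.90 (SE 0.24, limma adjusted p = 0.000624), and the call held under every setting with a test. Relative to Peg3 the ratio of Gm44015 was higher by 2.14 (95% interval 1.65 to 2.62), relative to Zim1 by 1.41 (0.62 to 2.19), relative to Usp29 by 1.33 (0.64 to 2.03) and relative to Zfp264 by 1.41 (0.78 to 2.04). The starts of Gm44015 and Zim1 are 68.1 and 34.0 kb from that of Peg3.

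Zim3, an antisense transcript that overlaps the end of Usp29 and the first 175 bp of Zfp264, had few reads. It gave 11 reads from 129 and 22 from cas in library 1, and 40 from 129 and 31 from cas in library 2. The raw reads of the libraries pointed opposite ways, and the log2 ratio of -0.59 (SE 0.59, limma adjusted p = 0.441) was not called. The labels do not say if counting kept the strands apart, and without that reads of Zim3 and those of Usp29 or Zfp264 in the overlaps cannot be told apart. In the annotation used, Peg3 and Zim1 overlap no other gene. The antisense transcript Apeg3 had no row under that name and could not be analysed, so any part of its reads in other rows is unknown.

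**Figure D3:**
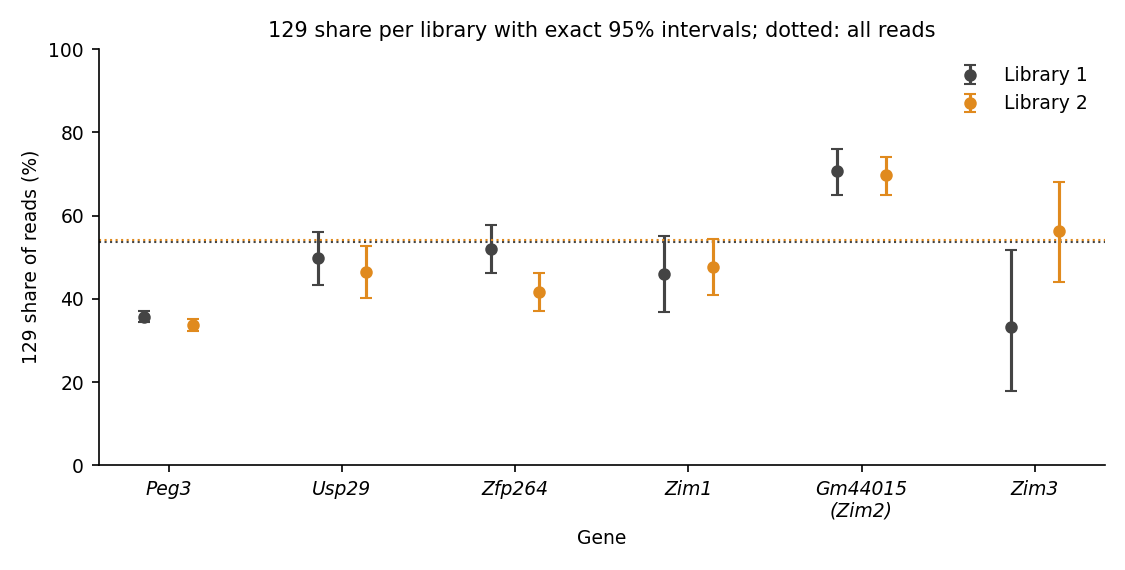
Points give the share of reads from 129 (vertical axis, percent) in library 1 (black) and library 2 (orange), bars the exact 95% intervals, which cover counting error only, and dotted lines the share of all reads in each library. Peg3 lies at 35.8% and 33.7%, and Gm44015 (Zim2) at 70.7% and 69.7%. The intervals of Zim1 in both libraries, of Usp29 and Zfp264 in library 1 and of Zim3 in library 2 cross the dotted lines.

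The domain lies in a stretch of zinc finger, olfactory receptor and vomeronasal receptor genes, so the neighbourhood was described for comparison. Within 2 Mb of the Peg3 start there were 164 rows besides the 4 genes, 86 of them without a read and 40 tested, Gm44015 and Zim3 included. Of these 40, 20 were called, or 50.0%, close to the 43.9% of all genes; 13 were higher from 129 and 7 from cas, with a median ratio of 0.17. Without Gm44015 and Zim3 the split was 12 and 7 of 38 tested genes. Over all 40, the split was 18 and 4 with 1 library size for both alleles, and 17 and 5 with the deposited column totals. On the side of Zim1 the 31 tested genes other than Gm44015 had a median of 0.35, with 11 called higher from 129 and 4 from cas. On the side of Zfp264 the 7 tested genes other than Zim3 had a median of -0.11, with 1 called higher from 129 and 3 from cas. The difference between the sides was not tested.

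The nearest tested gene outside the domain on the Zim1 side was the olfactory receptor gene Olfr1350, with 16 reads from 129 and 10 from cas in library 1 and 58 from 129 and 2 from cas in library 2 (log2 ratio 2.06, SE 0.78, limma adjusted p = 0.0211). On the other side it was the zinc finger gene Zfp954, with 19 reads from 129 and 20 from cas in library 1 and 0 from 129 and 20 from cas in library 2 (-2.13, SE 0.86, limma adjusted p = 0.0321). In both genes the alleles differed more in library 2, and with so few reads each call was lost under some settings. Of the neighbours with the largest ratios, the zinc finger gene Zfp773 gave 94.8% and 93.5% of its reads from 129 (log2 ratio 3.30, SE 0.69), from 58 and 77 reads. Zfp772, a further zinc finger gene, reached -2.47 (SE 0.78), with -1.04 in library 1 and -3.90 in library 2. Isoc2b (-2.02, SE 0.40) was higher from cas and Ccdc106 (1.53, SE 0.61) from 129, whose starts lie 1860 and 1710 kb away. The call of Zfp772 was lost in the exact binomial test (adjusted p = 0.132) and that of Ccdc106 with no filter on reads (limma adjusted p = 0.0592). Genes in clusters of close relatives can share reads, and the labels do not say how such reads were counted.

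**Figure D4:**
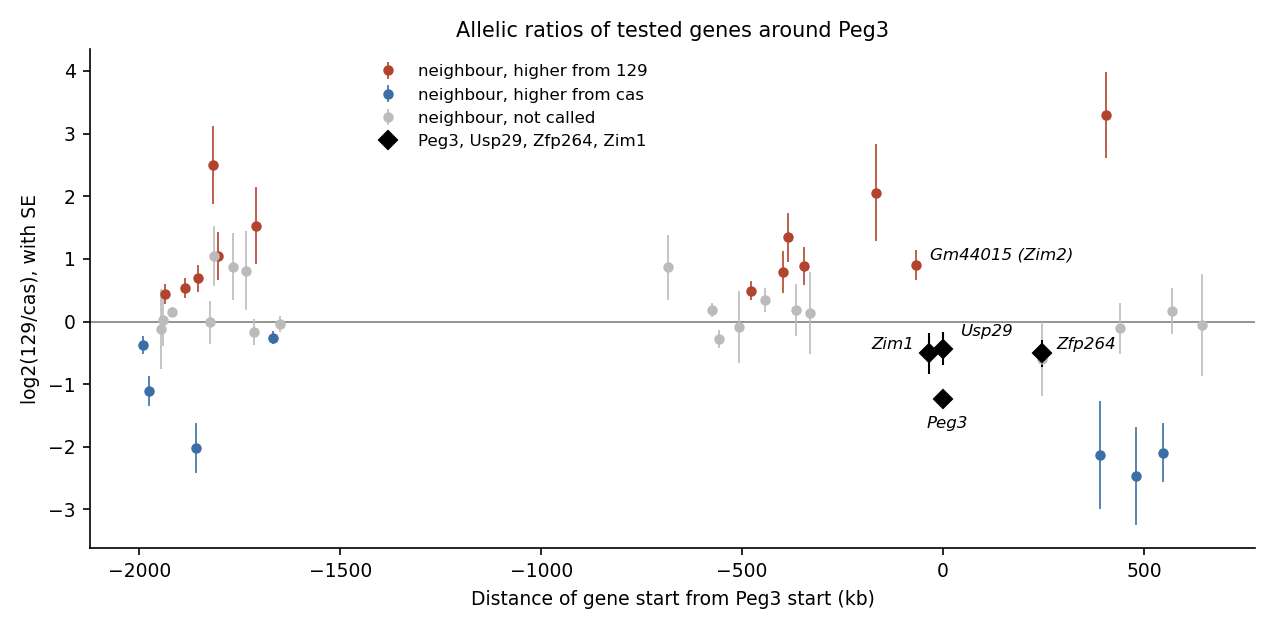
Log2(129/cas) with its SE (vertical axis) is plotted against the distance of each gene's start from that of Peg3 in kb (horizontal axis) for the 40 tested neighbours and the 4 genes (black diamonds). The 4 genes lie between -1.24 and -0.43, with Gm44015 (Zim2) at 0.90 beside them and neighbours of either direction further out.

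Imprints are maintained by factors that recognise or copy DNA methylation, and 14 such genes and DNA methylation regulators were read from the same fit. Of these 10 were called (71.4%, against 43.9% of all tested genes), 4 higher from 129 and 6 from cas, and none had 90% of its reads from 1 allele. The shares called were not matched for read number, on which the SE depends. The listed genes had 164 to 41747 reads in a library, against medians of 383 and 461 over tested genes. Zfp57, a zinc finger protein that binds methylated imprinting control regions, had a ratio of 0.60 (SE 0.19), and Uhrf1, which recruits the maintenance methyltransferase, 0.22 (SE 0.084). Zfp445, a second imprint-binding protein, the corepressor Trim28 and the insulator protein Ctcf had -0.29, -0.23 and -0.25, all of which turned positive with 1 library size for both alleles. With the deposited column totals none of them was called (limma adjusted p = 0.196, 0.153 and 0.119), nor in the exact binomial test. Dnmt3a and Dnmt3b, which set new methylation, had -0.84 (SE 0.10) and -0.74 (SE 0.12), and Dppa3, which protects imprints in the zygote, -1.72 (SE 0.34). The methylcytosine dioxygenase genes Tet1 and Tet2 had 0.74 (SE 0.039) and 0.12 (SE 0.047). Without the pairing of alleles by library, Zfp57, Uhrf1 and Tet2 were not called (limma adjusted p = 0.237, 0.525 and 0.408). Zfp445, Trim28 and Ctcf were not called either (limma adjusted p = 0.184, 0.264 and 0.317), whereas Dnmt3a, Dnmt3b, Dppa3 and Tet1 were. Dnmt1, the maintenance methyltransferase, named after its value was seen, had -0.015 (SE 0.062) without a call.

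Outside the domain, 20 paternally and 23 maternally expressed genes were tested, with medians of -0.021 and -0.13. Of the paternally expressed ones 13 were called, 6 higher from 129 and 7 from cas, and of the maternally expressed ones 12 were called, 4 higher from 129 and 8 from cas, or 65.0% and 52.2% against the 43.9% of all tested genes. These shares were not matched for read number either. In each list 2 genes had at least 90% of their reads from 1 allele in each library (10.0% and 8.70%), against 2.77% of all tested genes and none of the 4 genes here, too few to set beside that background. The paternally expressed ones were Dlk1 and Snrpn, with mean 129 shares of 95.5% and 92.7%. The maternally expressed ones were Htr2a (93.9%) and Asb4 (8.76%). By the distance between the ratios of both libraries, the genes of these lists most like Peg3 were Peg10, a paternally expressed retrotransposon-derived gene, at 0.52, the calcitonin receptor gene Calcr at 0.67 and the decarboxylase gene Ddc at 0.72. Their 129 shares were 40.4% ± 1.17, 41.5% ± 6.34 and 42.8% ± 4.71 (SD, n = 2), above the 34.7% of Peg3. Calcr was itself not called (limma adjusted p = 0.0927). Peg3 was not the gene furthest toward cas in these lists. Mean 129 shares were lower for Rtl1 (21.3%), Mirg (21.8%), Rian (22.4%), Meg3 (22.9%) and Asb4 (8.76%), all called higher from cas.

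**Figure D5:**
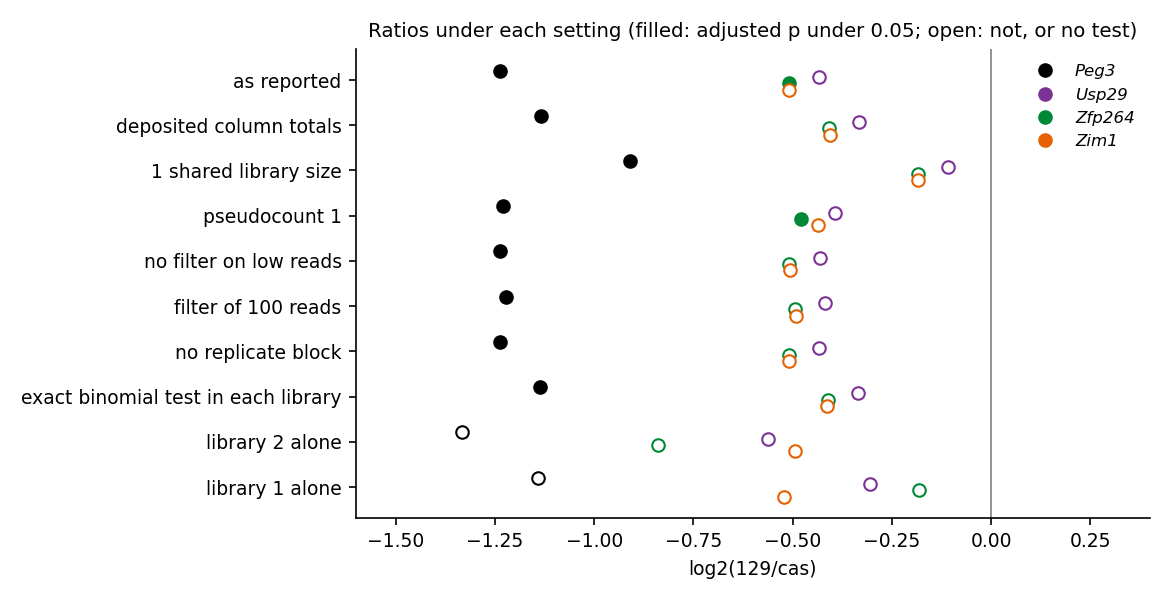
Log2(129/cas) of the 4 genes (horizontal axis) is shown under each setting (vertical axis), with filled points for an adjusted p under 0.05 and open points for none or for a single library, which has no test. Peg3 stays between -1.33 and -0.91 throughout, and every point of the other 3 genes lies between -0.84 and -0.11.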

How the data were processed

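Strand-specific libraries of nuclear RNA were read as paired ends and merged with earlier reads of the same libraries, per the labels' protocols. Bowtie2 and mm10 are named without versions, per the submitters' processing notes; for the counting program, SNP set, annotation and use of strand nothing is given in these sources. The deposited values are RPKM by the authors, although the header calls them counts. Multiplying each value by its row length and dividing by the worth of 1 read gave back whole reads (100.0% of values within 0.01 read). Deposited lengths differ from annotated ones (585 bp for Usp29, whose span is 236642 bp), so levels used GENCODE spans, matched for 95.4% of rows.

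Genes outside the Y chromosome with at least 20 allele reads in each library were tested with limma 3.58.1 (R 4.3.3) on log2(CPM + 0.1) of recovered reads, with TMM (trimmed mean) scaling, a variance trend and a block for the library. Fold changes on this scale understate those of low genes. SEs rest on a spread pooled over genes of like level. In the fit as reported, a gene's own spread between libraries had no weight in its SE. Calls used a Benjamini-Hochberg adjusted p under 0.05 over all tested genes. On simulated data for 15509 genes at the same design, 64.2% of 1.5-fold, 88.1% of 2-fold and 100% of 4-fold changes were recovered. The simulated spread (dispersion) was set at 0.003, and only 67, 67 and 66 genes were changed. In the data 43.9% of genes were called, so these shares are not the power of this experiment. Exact binomial intervals cover counting error only. Alternatives were other scalings, a pseudocount of 1, no filter or 100 reads, no block, a binomial test and single libraries. The 4 genes and all lists were chosen with earlier results of these data known. Named were the 4 genes, the domain's further transcripts, the 6 called neighbours of largest ratio (without predicted genes and pseudogenes), the nearest tested gene on each side, called imprint maintenance genes and the 3 imprinted genes most like Peg3. Outside this rule, Dnmt1, single marker genes and further imprinted genes were named after their values were seen.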

Additional observations from a re-analysis of the deposited data

How the results depend on the processing

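Peg3, Usp29 and Zim1 kept their direction and their side of the threshold in each alternative with a test. Zfp264 kept its direction but lost its call with the deposited column totals (-0.41), 1 shared library size (-0.18), no filter (-0.51), a filter of 100 reads (-0.49), no replicate block (-0.51) and the exact binomial test (-0.41), where adjusted p was 0.121, 0.505, 0.0611, 0.0838, 0.213 and 0.687. Single libraries, which have no test, gave -1.33 to -1.14 for Peg3, -0.56 to -0.31 for Usp29, -0.84 to -0.18 for Zfp264 and -0.52 to -0.49 for Zim1. Without the replicate block, which pairs the alleles of a library, 3954 genes were called over the whole table, against 6809 with it, and 9 neighbours, against 20. A filter of 100 reads left 21 neighbours tested and 11 called. With 1 shared library size Trim28 turned to 0.094, Ctcf to 0.074 and Zfp445 to 0.042. The causes were not tested. Single libraries gave no counts of calls. Few reads limit Zim1, Usp29 and Zim3, whose intervals span over 10 percentage points in each library.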
